A study of Rattus norvegicus with 9 samples.

Results

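The miR-199a and miR-214 miRNAs of rat serum were described in 9 small RNA libraries. The members were the 3 rows named miR-199a-3p, miR-199a-5p and miR-214-3p, found by name among the 567 miRNAs of the count matrix, and all 3 were among the 294 miRNAs with enough counts to be tested. They were selected on measured values, as a set lower in serum than in Control at both rotenone stages, so the values of both contrasts with Control are given here as a description without a test. There were 3 libraries in each group, from serum of adult male wild-type Wistar rats, and no label says whether each library came from a separate animal. The late group (LPD) received rotenone, an inhibitor of mitochondrial complex I, by daily intraperitoneal injection of 2 mg per kg for more than 40 days, to the terminal stage. The early group (EPD) received the same dose for 10 days. What the Control rats received is not stated, and the treatment label is worded alike in all 9 samples. Rotenone serves here as a systemic toxin model of Parkinson's disease, and serum collects miRNAs from many tissues and from platelets during clotting.

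In mouse both miRNAs are cut from one primary transcript, Dnm3os, a non-coding RNA read from the strand opposite to the dynamin gene Dnm3 and driven by the mesenchymal factor Twist1 in connective tissue. The hairpins are cut into arms, and the first bases of an arm after its 5′ end, the seed, choose its target mRNAs. In human cells miR-199a-3p represses mTOR, in rat cardiac myocytes miR-199a-5p represses Hif1a and Sirt1, and in human lung fibroblasts miR-199a-5p represses caveolin-1. In human blood miR-199a-3p is abundant in platelets, and the cluster is widely used as a marker of fibroblasts and activated stellate cells. Human and mouse have further copies of the miR-199 gene in other dynamin genes with a 3p arm of the same sequence. Whether rat counts of miR-199a-3p come from more than one gene was not tested.

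The 3 mature sequences are shown because the arms differ widely in level although they come from neighbouring hairpins. They are taken from RefSeq (build GRCr8), in which all 3 names matched, and capitals mark the seed, bases 2 to 8.
miR-199a-3p: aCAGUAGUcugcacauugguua
miR-199a-5p: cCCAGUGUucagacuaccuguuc
miR-214-3p: aCAGCAGGcacagacaggcag
On GRCr8 these lie on the plus strand at chr13:77116294-77116315, chr13:77116255-77116277 and chr13:77121713-77121733, in the order printed. The Mir199a2 and Mir214 hairpins are 5310 bases apart and both fall within the span of Dnm3. The seeds of miR-199a-3p and miR-214-3p have the same base at 5 of 7 positions and both miRNAs open with the same 4 bases, whereas the seeds of miR-199a-5p and miR-214-3p do so at 2. None of the 3 seeds occurs in another of the 693 mature miRNA names of the RefSeq table, so the members form 3 separate seed groups.

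The Mir214 hairpin is shown for its arms, in capitals: the first run is miR-214-5p and the second is miR-214-3p.
Mir214 hairpin: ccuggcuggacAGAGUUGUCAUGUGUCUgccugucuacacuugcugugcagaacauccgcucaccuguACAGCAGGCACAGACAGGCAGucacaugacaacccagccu
It spans chr13:77121645-77121752 on the plus strand of GRCr8, and its bases 28 to 48 are complementary to miR-3120, which is read from the minus strand. Of 4 relatives at this locus or in the miR-199b gene (miR-214-5p, miR-199b-5p, miR-199b-3p and miR-3120), only miR-3120 has a row in the matrix. It had 1 count in EPD 2, 2 counts in Control 2 and 0 counts in the other libraries, too few to test.

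The LPD libraries stood apart. Their totals were 132609 to 305019 counts, against 1136537 to 1668807 in EPD and 1108167 to 1539557 in Control. miRNAs with 1 to 9 counts numbered 3, 9 and 39 in LPD 1, LPD 2 and LPD 3, against 127 to 155 in EPD and 150 to 157 in Control, and the tenth lowest count above 0 was 20 in LPD 1, 10 in LPD 2 and 5 in LPD 3 but 1 in each other library. Low counts were thus rare in LPD. Control 2 stood apart in another way, with 44.3% of its counts from the hepatocyte miRNA miR-122-5p, against 1.44 to 4.23% in LPD, 1.07 to 4.43% in EPD and 2.47 and 5.14% in the remaining Control libraries. Levels below are CPM, counts scaled to a common library size with TMM factors, a method that sets libraries on a common scale through the miRNAs that differ least.

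miR-199a-3p was one of the most abundant miRNAs of Control serum and stood several-fold lower at both stages. It had 10314, 9066 and 14260 CPM in LPD 1 to 3, 11222, 11057 and 13567 CPM in EPD 1 to 3, and 56475, 26156 and 34485 CPM in Control 1 to 3. All 6 rotenone libraries lay below all 3 Control libraries, and the LPD and EPD ranges overlapped. By abundance it ranked 14 to 20 among the miRNAs of LPD libraries, 18 to 24 in EPD and 3 to 10 in Control. The mean was 11213 ± 2712 CPM in LPD, 11949 ± 1404 CPM in EPD and 39039 ± 15664 CPM in Control (SD, n = 3 each). The fitted log2 fold change was -1.80 (SE 0.33) in LPD against Control and -1.71 (SE 0.33) in EPD against Control. Both comparisons use the same Control libraries. Of the 294 tested miRNAs, 3.74% had every EPD and LPD library below every Control library, and miR-199a-3p was the only member among them.

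As a share of all counts, miR-199a-3p made up 1.02, 0.960 and 1.63% in LPD, 0.984, 1.26 and 1.35% in EPD, and 6.26, 1.75 and 3.88% in Control. The Wilson interval at 95%, which covers counting error only, was 1.56 to 1.70% in LPD 3 and 1.72 to 1.77% in Control 2. On this scale the lowest Control library thus stood just above the highest LPD library. The share in Control 2 is taken of a total in which miR-122-5p holds much of the counts. Without Control 2 the fitted log2 fold changes were -1.87 in LPD against Control and -1.80 in EPD against Control, and without Control 1, the highest library, they were -1.47 and -1.30.

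miR-199a-5p, the other arm of the same hairpin, was far less abundant. It had 0, 378 and 185 CPM in LPD 1 to 3, from 0, 84 and 28 counts. In EPD 1 to 3 it had 189, 199 and 258 CPM, and in Control 1 to 3 it had 381, 378 and 349 CPM. In CPM, EPD lay wholly below Control, while the LPD libraries ran from no count to the level of Control. As a share of all counts EPD and Control overlapped, with 0.0256% in EPD 3 and 0.0253% in Control 2. The total of Control 2 holds much miR-122-5p. The group means were 188 ± 189 CPM in LPD, 215 ± 37.3 CPM in EPD and 369 ± 17.6 CPM in Control (SD, n = 3 each). By counting error alone the absence in LPD 1 allows up to 3 counts, or 9.94 CPM. Counts of 1 to 9 were found for only 3 miRNAs in that library, so this limit may be too low. At the depth of LPD 1 the level of the EPD libraries would have given 57.1 to 77.9 counts and that of the Control libraries 105 to 115.

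The fitted log2 fold change of miR-199a-5p was -0.98 (SE 1.18) in LPD against Control and -0.78 (SE 1.17) in EPD against Control. Of all tested miRNAs, 41.8% had every LPD library below every Control library, as had miR-199a-3p but neither of the other members. The LPD value of miR-199a-5p turned on single libraries, with -0.12 without LPD 1, where the arm had no count, -0.60 without LPD 3 and -2.07 without LPD 2. The SE of the EPD value comes from a spread shared with LPD, and it was 0.29, with a log2 fold change of -0.70, when only EPD and Control were fitted. In CPM, 8.16% of all tested miRNAs had every EPD library below every Control library, as had miR-199a-3p and miR-199a-5p among the members. For miR-199a-5p this did not hold as a share of all counts.

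miR-214-3p went against the description of the set, since it was not lower in the late stage. It had 103, 310 and 92.3 CPM in LPD 1 to 3, 17.8, 32.4 and 58.4 CPM in EPD 1 to 3, and 143, 56.2 and 80.8 CPM in Control 1 to 3. All LPD libraries lay above all EPD libraries and above Control 2 and Control 3, and LPD 2 lay above every other library. EPD and Control overlapped through EPD 3 and Control 2. The means were 168 ± 123 CPM in LPD, 36.2 ± 20.6 CPM in EPD and 93.2 ± 44.5 CPM in Control (SD, n = 3 each), and the fitted log2 fold changes were 0.85 (SE 0.85) in LPD against Control and -1.36 (SE 0.85) in EPD against Control. The LPD value was 0.11 without LPD 2, 1.43 without LPD 1 and 1.46 without LPD 3, and the EPD value was -0.87 without Control 1 and -1.87 without EPD 3.

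**Figure D1:**
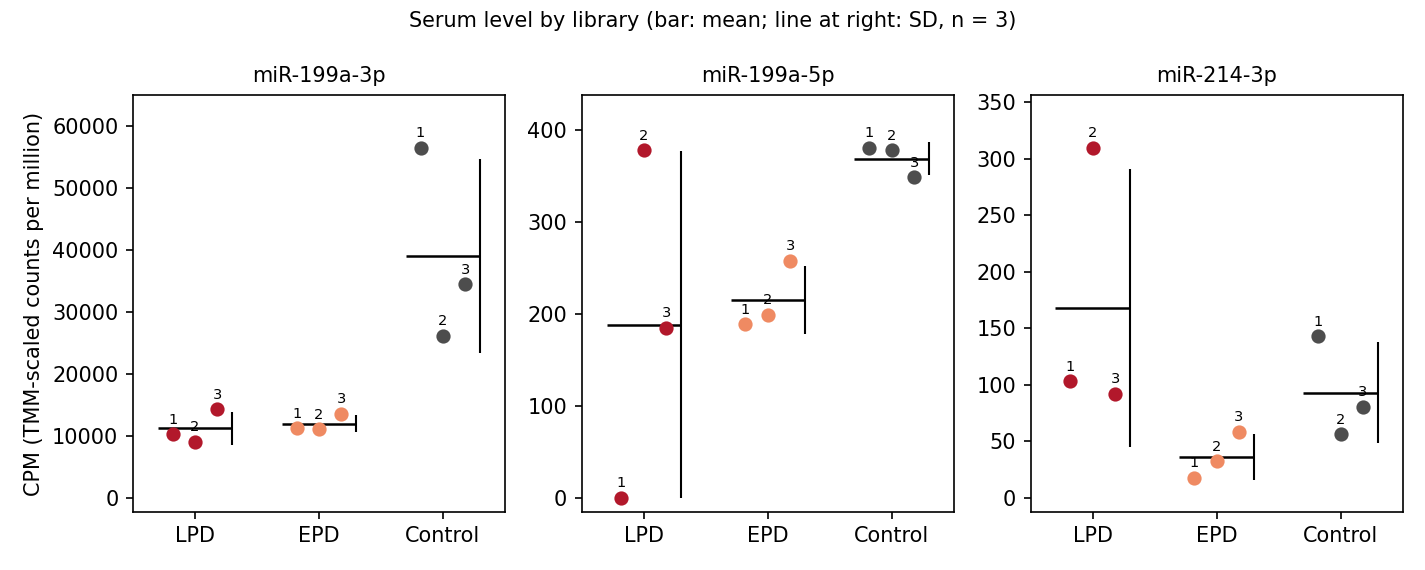
CPM of each member (vertical axis, linear, a separate scale per panel) in LPD, EPD and Control; numbered points are libraries, the horizontal bar is the mean and the line at its right the SD (n = 3). miR-199a-3p is low in all 6 rotenone libraries, miR-199a-5p runs from 0 to 378 CPM in LPD, and miR-214-3p is highest in LPD 2 with 310 CPM.

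The contrast of the late with the early stage was not used to choose the members, and it was tested. None of the 3 members passed in LPD against EPD with edgeR's quasi-likelihood test, adjusted by Benjamini-Hochberg over all 294 miRNAs, beside 36.7% of those miRNAs (4.08% as higher, 32.7% as lower). An unadjusted p under 0.05 was found for 1 member, miR-214-3p, beside 44.9% of all tested miRNAs, and DESeq2 called the same member, beside 41.5% of all tested miRNAs. Its log2 fold change by edgeR was 2.22 (SE 0.88, 95% interval 0.24 to 4.20, adjusted p = 0.0783), and 3 of 3 LPD libraries lay above every EPD library. Of all tested miRNAs 6.80% showed such a complete separation upwards, and 11 of 294 had a higher log2 fold change.

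The size and the call of the miR-214-3p difference moved with the processing. edgeR passed it without LPD 1 (2.70, adjusted p = 0.0392), without LPD 3 (2.74, adjusted p = 0.0308) and when the fit was limited to miRNAs seen in every library (2.62, adjusted p = 0.0205), and DESeq2 gave 2.59 (adjusted p = 0.00287). Without LPD 2 it was 1.38 (adjusted p = 0.163). Over all 17 alternatives the adjusted p ran up to 0.227, that without EPD 2. The counts behind it were 31, 69 and 14 in LPD, against 26, 42 and 93 in EPD. At the mean EPD level the LPD libraries would have given 10.9, 8.04 and 5.49 counts. In LPD 1, where few miRNAs have under 20 counts, its 31 counts ranked 143 among the 184 miRNAs with a count.

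The miR-199a arms passed no test between the stages. miR-199a-3p had a log2 fold change of -0.09 in LPD against EPD (SE 0.32, 95% interval -0.82 to 0.64, adjusted p = 0.844, edgeR), with 2 LPD libraries below and 1 above the EPD range. The interval leaves room for a difference of that size in either direction. For miR-199a-5p the value was -0.21 (SE 1.17, 95% interval -2.86 to 2.45, adjusted p = 0.907, edgeR). That interval is too wide to place the late level near the early one. The sign turned without LPD 1 (0.57) and without LPD 3 (0.09). The median log2 fold change of all tested miRNAs was -0.92, and of the 124 with counts in all 9 libraries it was -0.09, the same as for miR-199a-3p. With DESeq2's size factors these medians stood at -0.64 and 0.17 and miR-199a-3p at 0.19.

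**Figure D2:**
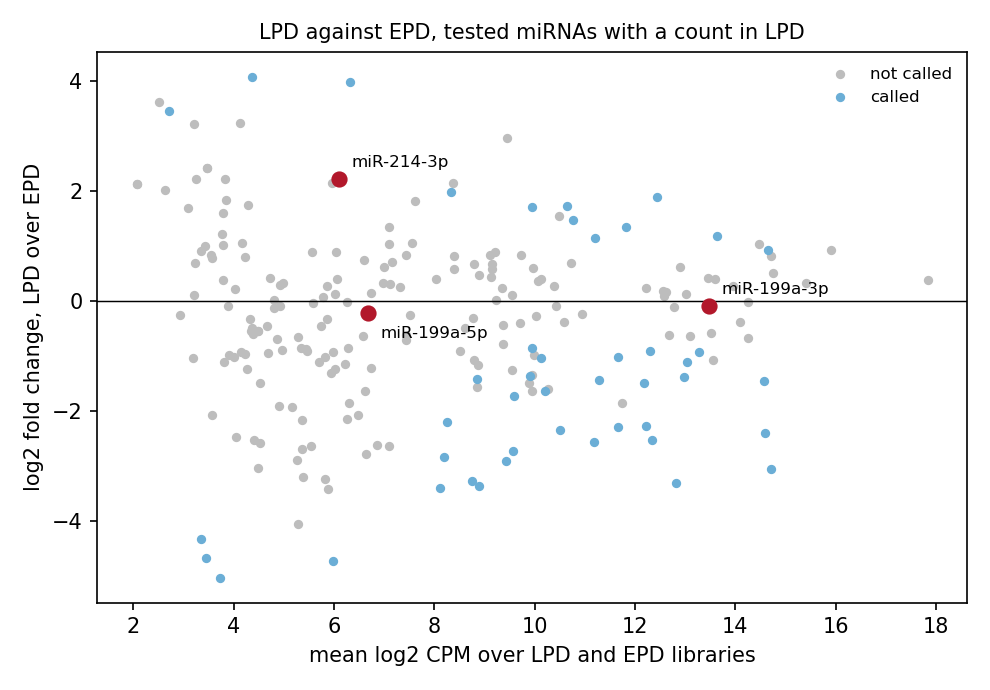
Log2 fold change in LPD over EPD (vertical axis) against mean log2 CPM over the LPD and EPD libraries (horizontal axis) for 226 tested miRNAs, with the 68 that have no count in any LPD library left out; blue points passed at adjusted p 0.05. miR-199a-3p and miR-199a-5p lie near 0, and miR-214-3p lies at 2.22 with a mean log2 CPM of 6.11.

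Ratios between the members within a library need no scaling between libraries. For each count of miR-214-3p there were 100, 29.2 and 154 counts of miR-199a-3p in LPD 1 to 3, 632, 342 and 232 in EPD 1 to 3, and 396, 465 and 427 in Control 1 to 3. The Control libraries were close to each other, with a log2 ratio of 8.73 ± 0.11, against 6.24 ± 1.23 in LPD and 8.51 ± 0.72 in EPD (SD, n = 3 each). Every LPD library lay below every EPD and every Control library. The LPD mean was 2.27 log2 below the EPD mean, with an exact two-sided permutation p = 0.1, the smallest that 3 libraries against 3 can give (0.15 adjusted over 3 ratios).

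The arm ratio of the miR-199a hairpin was even within EPD and wide within LPD. There were 59.3, 55.6 and 52.6 counts of the 3p arm per count of the 5p arm in EPD 1 to 3, and 148, 69.2 and 98.7 in Control 1 to 3. LPD 2 had 24.0, LPD 3 had 77.2, and LPD 1 had 3114 counts of the 3p arm and 0 of the 5p arm. The LPD and EPD ratios overlapped (exact permutation p = 0.700, two-sided, adjusted 0.700), and the mean difference of 2.01 log2 became -0.39 without LPD 1. miR-199a-5p to miR-214-3p stood at 0, 1.22 and 2.00 counts per count in LPD 1 to 3, 10.7, 6.14 and 4.42 in EPD and 2.67, 6.73 and 4.32 in Control. LPD lay below all others (LPD minus EPD -4.28 log2, exact permutation p = 0.1, two-sided, adjusted 0.15), by 2.08 log2 without LPD 1. Both ratios to miR-214-3p rest on its 31, 69 and 14 counts in LPD 1 to 3. They are therefore not independent of its own LPD against EPD difference given above.

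**Figure D3:**
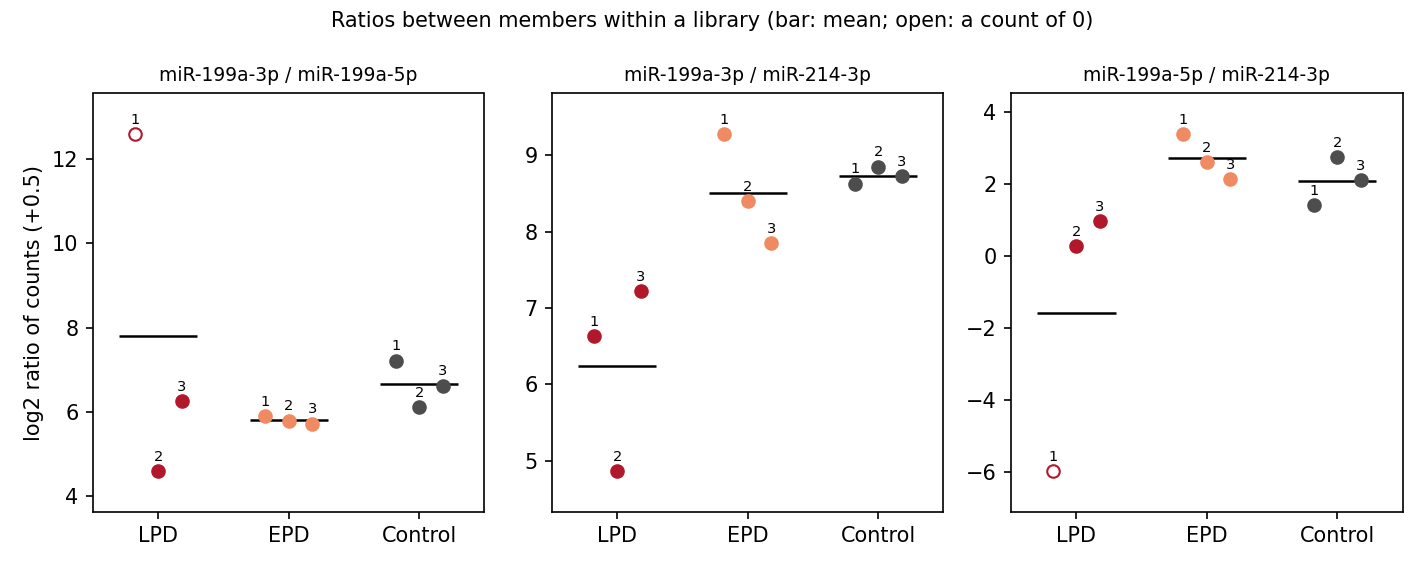
Log2 ratio of counts (0.5 added to each) of each pair of members (vertical axis) in LPD, EPD and Control; numbered points are libraries, bars are means, and open points rest on a count of 0. In both ratios to miR-214-3p, which share its counts, every LPD library lies below every EPD library.

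Shared variation of the members between libraries of a group passed no test after adjustment over the 3 pairs. After removal of the group means, log2 CPM of miR-199a-3p and miR-199a-5p gave Pearson r = 0.08 over 9 libraries (exact permutation within groups, p = 0.861, adjusted over 3 pairs 0.861) and Spearman rho = 0.12 (permutation p = 0.806, adjusted 0.963). miR-199a-3p and miR-214-3p gave r = 0.25 (permutation p = 0.546, adjusted 0.819) and rho = 0.03 (permutation p = 0.963, adjusted 0.963). miR-199a-5p and miR-214-3p gave r = 0.39 (permutation p = 0.509, adjusted 0.819) and rho = 0.53 (permutation p = 0.194, adjusted 0.583). Without the 2 libraries farthest from the median of the first miRNA, r became -0.20, 0.29 and -0.21 for these pairs. Higher values were found with EPD and Control libraries only, where r was 0.33, 0.78 and 0.73 for the same pairs over 6 libraries (exact permutation p = 0.361, 0.0556 and 0.194, adjusted 0.361, 0.167 and 0.292) and rho was 0.43, 0.54 and 0.77 (adjusted permutation p = 0.333 each). Without the 2 farthest of these libraries r was 0.97, 0.80 and 0.15, with no test. Control 1 and Control 2 were left out for the first 2 pairs, and EPD 1 and EPD 3 for the last. With 1 library of a group left, these values cannot show co-variation. With library totals in place of TMM the pair of miR-199a-3p and miR-214-3p had r = 0.55 over 9 libraries (permutation p = 0.194, adjusted 0.507), and 0.03 without Control 1 and Control 2. For miR-199a-5p and miR-214-3p rho was 0.77 with that scaling (permutation p = 0.0231, adjusted 0.0694). So few libraries cannot tell a moderate correlation from none.

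Profiles like that of the set were ranked by Pearson r over the 9 libraries with the mean log2 CPM of the 3 members, among 122 other miRNAs with counts in all libraries. The first 5 were miR-326-3p (0.69), miR-423-3p (0.68), the muscle miRNA miR-1-3p (0.61), miR-103-3p (0.56) and miR-378a-3p (0.55). This mean is drawn down in LPD 1 by the absent miR-199a-5p, and without LPD 1 the values were -0.58, 0.25, 0.69, 0.28 and -0.13. The ranking was therefore repeated for miR-199a-3p alone, a choice made after its values were seen. The first 5 were then miR-152-3p (0.85), miR-148a-3p (0.77), miR-351-5p (0.75), miR-542-5p (0.66) and miR-195-5p (0.65), and without LPD 1 these 5 values ran from 0.71 to 0.84. The 9 libraries share their scaling, and the low rotenone and high Control levels weigh on r.

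miR-152-3p had 957, 549 and 877 CPM in LPD 1 to 3, 1286, 1733 and 1884 CPM in EPD and 3745, 2451 and 3166 CPM in Control. miR-148a-3p had 7204, 7783 and 6725 CPM in LPD, 13436, 12082 and 15485 CPM in EPD and 24817, 18172 and 15866 CPM in Control. In both, LPD lay below EPD and EPD below Control in CPM, without overlap, whereas LPD and EPD overlapped in miR-199a-3p. Both were picked for likeness to miR-199a-3p, so their split from Control follows in part from that choice. Of all tested miRNAs, 3.74% had every EPD and LPD library below every Control library. The share with the full order was not counted. miR-152-3p is also in the fibroblast list used below. Their sequences (RefSeq, GRCr8, seed in capitals) are shown because both carry one seed, which is none of the 3 seeds above.
miR-152-3p: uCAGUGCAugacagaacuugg
miR-148a-3p: uCAGUGCAcuacagaacuuug

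**Figure D4:**
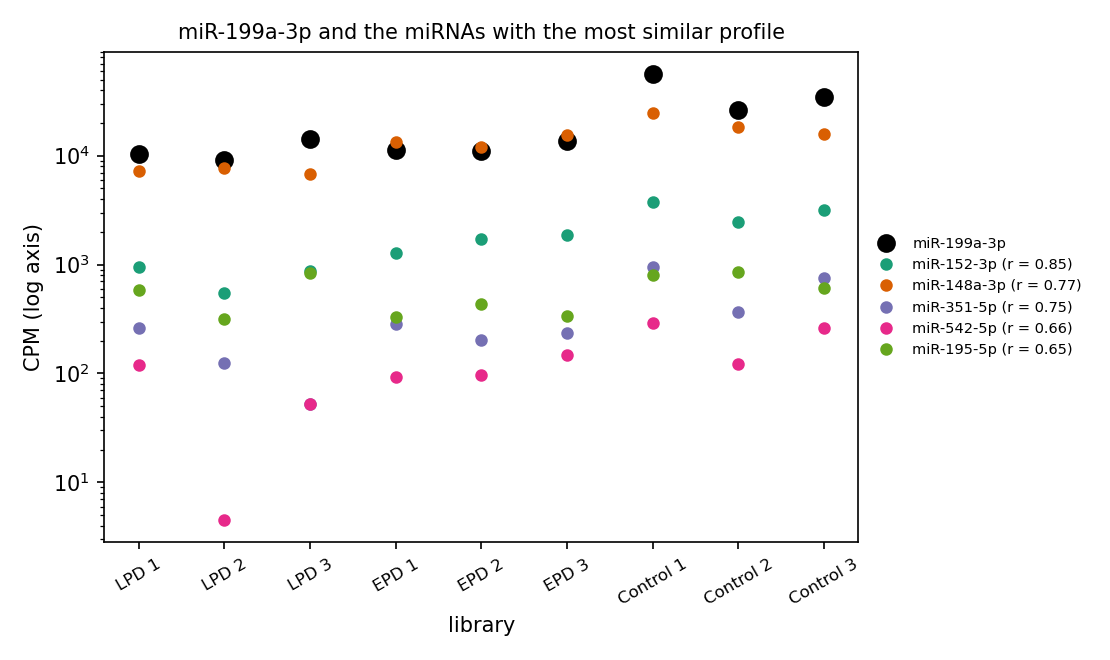
CPM (vertical log axis) in each library (horizontal axis) of miR-199a-3p, in black, and of the 5 miRNAs with the highest Pearson r to it. All are plotted without joining lines because libraries of a group have no order; miR-542-5p stands at 4.50 CPM in LPD 2.

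The cell types to which the members are ascribed were followed through a list of 12 platelet miRNAs and a list of 12 miRNAs of fibroblasts and vessel wall, all 24 of which were tested. In LPD against EPD the platelet list had 2 higher and 1 lower miRNAs by edgeR, beside 4.08% higher and 32.7% lower of all tested miRNAs. Its median log2 fold change was 0.37, beside -0.92 for all tested miRNAs, of which 68 had no count in any LPD library. All 12 of the platelet list had counts in all 9 libraries, and the 124 tested miRNAs with such counts had a median of -0.09. Over the alternatives the platelet list had 1 to 5 higher (5 with DESeq2, 4 with DESeq2's size factors in edgeR) and 1 to 2 lower, with medians of 0.29 to 0.70. The called ones with the smallest p were miR-191a-5p, abundant in platelets (-3.06, SE 0.46, adjusted p = 0.00576), and the endothelial and platelet miR-126a-5p (1.90, SE 0.33, adjusted p = 0.00576), which moved in opposite directions. The fibroblast and vessel wall list, of which 9 had counts in all 9 libraries, had 2 higher and 6 lower, with a median of -1.88. Its alternatives gave 1 to 2 higher and 4 to 7 lower (4 without EPD 2, EPD 3 or LPD 2). miR-125b-5p of vessel wall fell (-2.53, SE 0.25, adjusted p = 7.91e-04, edgeR), as did the cartilage miRNA miR-140-3p (-3.30, SE 0.53, adjusted p = 0.00576). The 2 called higher in this list were miR-10b-5p (1.74, SE 0.35, adjusted p = 0.00591, edgeR) and miR-143-3p (0.93, SE 0.31, adjusted p = 0.0415, edgeR). All 17 alternatives called each of miR-191a-5p, miR-126a-5p, miR-125b-5p and miR-140-3p.

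Against Control the platelet list had 3 higher and 2 lower in LPD (median 0.42), and the fibroblast list 1 higher and 6 lower (median -1.78). The median was -1.04 for all tested miRNAs, of which 37.1% were called, 4.42% as higher and 32.7% as lower. For the 124 tested miRNAs with counts in all 9 libraries it was -0.21. In the alternatives the platelet list ran from 1 to 5 higher and 1 to 2 lower, and the fibroblast list from 4 to 7 lower with 1 higher in each. In EPD edgeR called 0 of 294 miRNAs against Control, hence 0 of either list, with 11 at an unadjusted p under 0.05 and 1 called by DESeq2. The list medians were -0.04 for platelets and -0.41 for fibroblasts, beside -0.05 for all tested miRNAs. In the alternatives they ran from -0.10 to 0.22 and from -0.45 to 0.04.

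Summed marker levels were also taken per library. The 4 platelet markers (miR-223-3p, miR-126a-3p, miR-126a-5p and miR-191a-5p) summed to 60569 to 107218 CPM in LPD, 102331 to 194732 CPM in EPD and 66633 to 112772 CPM in Control, and the Control range overlapped both others. Of these markers only miR-191a-5p had a lower mean in LPD than in EPD, 9896 CPM against 82382 CPM. The means of the others were higher in LPD. They were 49559 against 39205 CPM for miR-223-3p, 14794 against 11152 CPM for miR-126a-3p and 10889 against 2921 CPM for miR-126a-5p. The 2 fibroblast and smooth muscle markers miR-143-3p and miR-145-5p summed to 31521 to 40844 CPM in LPD, 17536 to 24446 CPM in EPD and 26536 to 54771 CPM in Control. EPD lay below both other groups in this sum, which is nearly all miR-143-3p (means of 36025 CPM in LPD, 18879 CPM in EPD and 33281 CPM in Control). miR-145-5p had its lowest mean in LPD, with 675 CPM against 1893 CPM in EPD and 2876 CPM in Control. Erythrocyte markers (5 of 6 listed were in the matrix) summed to 236026 to 372968 CPM in LPD, 153209 to 394876 CPM in EPD and 84573 to 169287 CPM in Control. Most of this sum was miR-16-5p, with means of 283010 CPM in LPD, 216430 CPM in EPD and 128014 CPM in Control. In the same order miR-486 had means of 39299, 19070 and 8690 CPM, and miR-451-5p of 1137, 1372 and 627 CPM. Hepatocyte markers (4 of 4) reached 696990 CPM in Control 2, against at most 46856 CPM in LPD and 56412 CPM in EPD, and miR-802-5p was at 0 in all LPD libraries. The 3 muscle markers summed to 715 to 10713 CPM in LPD, 316 to 4933 CPM in EPD and 1408 to 7637 CPM in Control. The part of these shifts in the member levels was not tested, and in serum fewer releasing cells and less RNA released per cell cannot be told apart.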

How the data were processed

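Small RNA was isolated from rat serum with a miRNeasy serum kit and sequenced from QIAseq miRNA libraries, per the labels' protocols. The authors deposited raw counts of reads for each mature miRNA, as whole numbers, with 0 differences between the series matrix and the single-library files. The submitters' processing notes name the build mRatBN7.2, whereas sequences came from RefSeq on GRCr8. For the aligner, annotation, read filter and use of the kit's molecular identifiers, the tool or setting is not given in the sources used here. PCR reads are not independent molecules, so intervals cover counting error only. Whether libraries came from separate animals is not labelled per sample, so p-values measure the spread between these libraries. Within groups, pairs of libraries differed beyond sampling noise (chi-square per degree of freedom at least 30.7).

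miRNAs were filtered with edgeR's filterByExpr (at least 10 counts, 15 in total), scaled by TMM and fitted for all 3 groups together with the robust quasi-likelihood model (edgeR 4.0.16, R 4.3.3), with Benjamini-Hochberg adjustment over 294 miRNAs and a threshold of 0.05. SEs were derived from the F statistic. Log2 CPM and ratios used 0.5 added counts. Exact permutation tests used Python 3.11.15 and scipy 1.17.1. The model was tested on simulated counts for LPD against EPD over 285 miRNAs: it found 73.7% of changes of 2 log2 and 4.76% of changes of 1 log2, with 0 false calls. The simulated spread between libraries was smaller than the fitted one (common biological coefficient of variation 0.655). Changes were placed only in miRNAs with enough expected counts, and low counts were not made rare in LPD. These rates therefore cannot be carried over to the real libraries. Alternatives were DESeq2 1.42.0, other scalings and filters, a replicate block and leaving out libraries.

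The members and lists were chosen with earlier results of these data known. Named miRNAs were the 3 members, their locus relatives, the 5 most similar profiles, and up to 2 called miRNAs per list with the smallest p in LPD against EPD. The miRNAs of the fibroblast list called higher in that contrast were named as well. Lists were described by counts and medians, without a set test.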

Additional observations from a re-analysis of the deposited data

How the results depend on the processing

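The counts of called miRNAs moved by over 1.5 times in few alternatives, and the number of miRNAs tested differed between alternatives. LPD against EPD had 108 calls, with 35 where every library had to hold a count and 67 when only those groups were fitted, and 90 to 134 when a library was left out. LPD against Control had 109, with 38 and 52 in the same alternatives and 93 to 140 without a library. EPD against Control had 0, with 1 where every library had to hold a count, 1 with DESeq2 and 0 to 1 without a library (1 without Control 2).

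In LPD against EPD the near-zero value of miR-199a-3p (-0.09) changed sign with DESeq2's size factors in edgeR (0.19), library totals (0.01), counts in all 9 libraries (0.23), DESeq2 (0.19) and only those groups fitted (0.05), and ran from -0.19 to 0.03 without a library. miR-199a-5p (-0.21) changed sign with DESeq2's size factors (0.16), DESeq2 (0.16) and only those groups fitted (0.09). It also changed sign without LPD 1 (0.57) or LPD 3 (0.09), and ran from -1.38 to 0.57 without a library. It has no value over miRNAs with counts in all 9 libraries. miR-214-3p (2.22) kept its sign in all 17 alternatives. It passed with counts in all 9 libraries (2.62) and with DESeq2 (2.59), and ran from 1.38 to 2.74 without a library, passing without LPD 1 or LPD 3.

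Against Control, miR-199a-3p in EPD (-1.71) ran from -1.80 to -1.30 without a library, and no member changed sign in either contrast in any alternative that gave it a value. The arm ratio of miR-199a, LPD minus EPD (2.01), ran from -0.39 to 3.63 without a library. Without LPD 1 the profile correlation with the set mean turned for miR-326-3p (-0.58) and miR-378a-3p (-0.13). The causes of these shifts were not tested.

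Same-numbered libraries did not deviate together (correlations -0.11 to 0.09 over 9 pairs), so the titles' numbers were not taken as pairs. With the replicate number as a block, LPD against EPD gave 101 calls and log2 fold changes of -0.11, -0.67 and 2.18 for miR-199a-3p, miR-199a-5p and miR-214-3p (edgeR adjusted p = 0.834, 0.754 and 0.204). It changed no call of a member. 1 of 9 libraries correlated best with its own number in both other groups. Depth limits miR-199a-5p and miR-214-3p in LPD, where they rest on 112 and 114 counts in all.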
